A study of Homo sapiens with 12 samples.

Results

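Metallothionein expression was followed in human embryonic stem cells (hESCs) of the line WA26 by reading 8 genes out of the 28278 in the deposited count table: MT1E, MT1F, MT1G, MT1H, MT1M, MT1X, MT2A and MTF1. The 8 genes were chosen by name, as 7 metallothionein genes and the transcription factor that reads metal for them, and all 8 passed the filter on low counts that left 15916 genes for testing. RNA-seq libraries came from 4 groups of 2 libraries each. Wild-type (WT) cells and UBQLN1 knockout (KO) cells, the latter lacking the ubiquitin-binding shuttle protein ubiquilin 1, were kept untreated under normal O2. KO cells were also cultured at 5% O2 or with N-acetylcysteine (NAC), a thiol antioxidant. All 4 groups share the WA26 background, and the WT cells given NAC or 5% O2 were not analysed here. The labels name neither a dose nor a duration for NAC. The study describes DMSO as the vehicle control of NAC, while the labels call the control libraries untreated, so whether those libraries received vehicle is not known. The study's methods describe KO lines picked as clones, so a KO effect and a clone effect cannot be told apart here. Nothing in the labels says whether paired libraries of a group came from separate cultures, so p-values measure only the spread between these libraries, which may be technical.

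Metallothioneins are small cysteine-rich proteins that hold zinc and copper ions through their thiol groups and give them up when those thiols are oxidized, which ties them to both metal balance and redox state. Their genes lie in one cluster on the long arm of human chromosome 16. MTF1 is a zinc finger protein that, when free zinc rises, enters the nucleus, binds metal response elements in metallothionein promoters and raises their transcription. NAC carries a free thiol that can itself bind metal ions.

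The promoters of the metallothionein genes show the sites through which the family is known to be read, and 4 of the 8 members had a promoter in the RefSeq sequences used (GRCh38.p14): MT2A, MT1H, MT1X and MTF1. The 250 bases before the start of each gene were searched on both strands for the core of the metal response element, spelled TGCACNC or TGCGCNC. The 3 metallothionein promoters are shown because the matches recur in them at like distances from the start; the strand shown is the plus strand, 5′ to 3′, and capitals mark the matches on either strand. MT2A lies at chr16:56608334-56608583, MT1H at chr16:56669564-56669813 and MT1X at chr16:56682220-56682469.
MT2A: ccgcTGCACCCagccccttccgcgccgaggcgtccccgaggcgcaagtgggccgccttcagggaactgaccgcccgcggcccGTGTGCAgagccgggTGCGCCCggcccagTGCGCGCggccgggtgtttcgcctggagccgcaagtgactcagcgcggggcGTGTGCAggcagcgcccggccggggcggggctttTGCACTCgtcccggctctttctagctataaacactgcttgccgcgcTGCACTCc
MT1H: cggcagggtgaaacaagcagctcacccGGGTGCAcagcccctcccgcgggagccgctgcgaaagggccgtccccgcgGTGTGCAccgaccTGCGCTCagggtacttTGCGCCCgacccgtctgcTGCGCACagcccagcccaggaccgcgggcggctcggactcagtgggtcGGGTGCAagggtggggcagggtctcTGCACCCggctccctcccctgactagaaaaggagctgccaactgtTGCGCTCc
MT1X: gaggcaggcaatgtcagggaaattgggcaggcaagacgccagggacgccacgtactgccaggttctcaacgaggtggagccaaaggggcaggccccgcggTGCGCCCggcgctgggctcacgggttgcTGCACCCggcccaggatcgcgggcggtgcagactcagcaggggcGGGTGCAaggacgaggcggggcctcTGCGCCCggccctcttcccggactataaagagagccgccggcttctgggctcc

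The MT1H promoter held 8 matches, that of MT2A 7 and that of MT1X 4, whereas MTF1 held 0. Among 27305 promoters of the same length, 24.72% held at least 1 match, 0.3662% held at least the 4 of MT1X, 0.03296% at least the 7 of MT2A and 0.01831% at least the 8 of MT1H. MT1H and MT1X each had a match from base -53 to -47 and one on the other strand from -78 to -72, counted back from the start, and MT2A had one from -54 to -48. A core of the hypoxia response element (ACGTG or GCGTG, both strands) occurred 1 time in MT1X and 1 time in MT2A, 2 times in MTF1 and 0 times in MT1H, against 43.08% of promoters with at least 1. The antioxidant response element core (TGACNNNGC, both strands) occurred 1 time each in MT1X and MT2A, against 11.03% of promoters. In MT2A the hypoxia core overlapped the metal response match on the other strand, from -88 to -82. These are matches of letters in a fixed window and no evidence of binding.

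**Figure D1:**
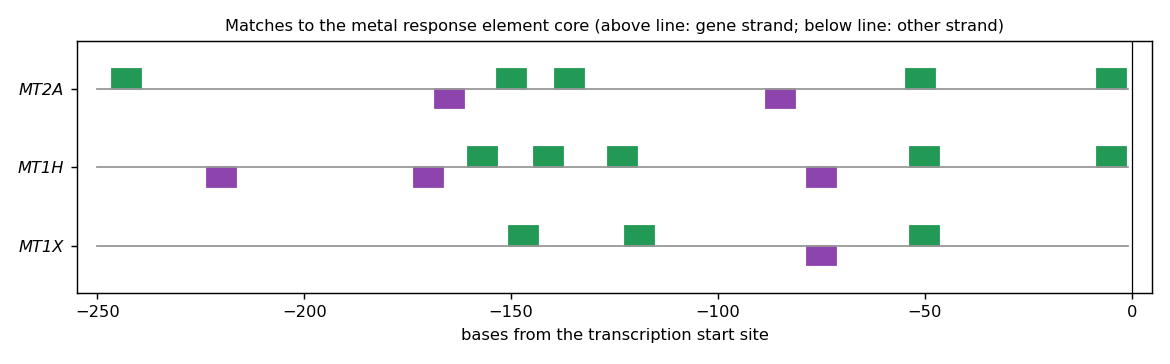
Positions of the matches to the metal response element core in the 250 bases before the start of MT2A, MT1H and MT1X, with the distance from the transcription start site in bases on the horizontal axis. Boxes above each line are matches on the gene's strand and boxes below it matches on the other strand; all 3 promoters hold a pair of matches on opposite strands between -88 and -47.

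Total counts per library lay between 31236968 and 41639350, and the libraries of every group differed by more than sampling noise (chi-square per degree of freedom 9.53 to 30.7), so none was counted as a duplicate. UBQLN1 was at 197 to 221 CPM in the WT libraries and 42.3 to 62.4 CPM in the 6 KO libraries, in the direction of the labels; CPM are counts scaled to a common library total. Pluripotency markers (8 genes) summed to 5686 to 7055 CPM in every library, with none at 0. Within that sum DNMT3B went from 2553 and 2455 CPM in untreated KO libraries to 1137 and 1418 CPM with NAC, and DPPA4 from 683 and 678 CPM to 1135 and 1072 CPM. Fibroblast markers (10 genes) summed to 549 to 651 CPM except in NAC library 1, at 983 CPM, where none was at 0; COL3A1, LUM and DCN were at 0 in the other NAC library. NAC results on the members, the metal genes and the neighbouring genes are therefore also given without NAC library 1. Neural markers (4 genes) summed to 279 and 243 CPM in WT, 471 and 444 in KO under normal O2, 230 and 304 at 5% O2 and 139 and 155 with NAC, with PAX6 at 0 in 3 libraries. NES made up most of this sum, at 266 and 226 CPM in WT, 451 and 422 in KO, 212 and 287 at 5% O2 and 126 and 129 with NAC, and OTX2 did not follow it, at 8.81 and 8.87 CPM in WT, 11.1 in both KO libraries and 10.9 and 18.2 with NAC. Mesendoderm markers (6 genes) summed to 1.31 to 5.80 CPM. In bulk RNA, fewer cells of a type and less RNA per cell cannot be told apart. The part of these marker shifts in the results was not tested.

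The 7 metallothionein genes lie between base 56608584, the start of MT2A, and base 56684196, the end of MT1X, of chromosome 16 (GRCh38.p14), in the order MT2A, MT1E, MT1M, MT1F, MT1G, MT1H, MT1X, all on the plus strand except MT1G. None of the 7 overlaps another RefSeq gene. MTF1 lies on chromosome 1 from 37809574 to 37859592, on the minus strand. The metallothionein transcripts are short, 397 to 746 bases against 7937 for MTF1, and resemble each other: the share of a transcript's 31-base words that recur elsewhere on the chromosomes was 12.5% in MT1F, 29.6% in MT1X, 31.9% in MT1G, 33.5% in MT2A, 34.4% in MT1E, 39.1% in MT1H and 40.4% in MT1M. It was 3.31% in MTF1. Among 14828 tested genes of known length, 1.00% had transcripts shorter than that of MT1H, the shortest member, and 3.78% shorter than that of MT1E. By its default settings the authors' counting kept uniquely placed reads, so the levels of paralogs rest on the part of each transcript that sets it apart and are uncertain as absolute levels.

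Per kilobase of transcript, MT1X stood highest in WT cells at 405 CPM per kb, followed by MT2A at 366 and MT1G at 326 CPM per kb. MT1F, MT1E and MT1H stood at 166, 75.2 and 50.5 CPM per kb, and MT1M at 8.57. MTF1, whose protein acts on the others, stood at 1.67 CPM per kb. MT1X, MT2A and MT1G stood in this order in all 4 groups, with MT1X and MT2A nearly level in KO cells under normal O2, at 288 and 286 CPM per kb. With NAC, MT1X stood at 371, MT2A at 203, MT1G at 106 and MT1F at 97.5 CPM per kb.

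In UBQLN1 KO cells under normal O2, MT1E, MT1F, MT1G and MT1H were called lower than in WT. With a trend in transcript length and GC content removed, MT1E and MT1G were still called, whereas MT1F and MT1H were not. The other 3 metallothionein genes also had lower values in both KO libraries than in both WT libraries, without passing edgeR's test, and MTF1 did not follow. DESeq2 called 6 of the 8 members lower. The share of all genes it called was not worked out, so its count cannot be set beside that of edgeR. The comparison addresses what the loss of UBQLN1 did to the transcriptome. Each difference below is a log2 fold change, given with its standard error and with the p of edgeR's quasi-likelihood test, adjusted by Benjamini and Hochberg's method over all 15916 genes.

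MT1G, one of the metal-inducible MT1 isoforms, was measured at 139 and 128 CPM in the WT libraries and at 62.7 and 60.8 CPM in the KO libraries. Its KO libraries lay well below both WT libraries and close to each other, a log2 fold change of -1.11 ± 0.14 (SE, adjusted p = 0.00152) or 2.16-fold lower. MT1H, transcribed next to MT1G in the opposite direction, was at 19.7 and 20.4 CPM in WT against 7.89 and 10.1 CPM in KO, -1.15 ± 0.20 (adjusted p = 0.0124). MT1E was at 57.8 and 54.4 CPM in WT against 26.7 and 30.9 CPM in KO, -0.96 ± 0.13 (adjusted p = 0.00396). In both genes the groups were apart by more than the spread within either. MT1F, the member with the fewest repeated words, was at 70.1 and 70.9 CPM in WT against 46.5 and 52.3 CPM in KO, a smaller difference of -0.51 ± 0.10 (adjusted p = 0.0257).

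MT1X, the most abundant isoform per length, was at 169 and 158 CPM in WT and at 102 and 131 CPM in KO. The groups did not overlap but the KO libraries were spread, and the difference of -0.49 ± 0.11 had an adjusted p of 0.05004, just above the threshold of 0.05. MT2A, the main metallothionein of most human tissues, was at 156 and 137 CPM in WT against 107 and 122 CPM in KO, -0.35 ± 0.11 (adjusted p = 0.121). MT1M was the sparsest member, at 2.55 and 4.28 CPM in WT (85 and 165 counts) and 2.01 and 2.31 CPM in KO (74 and 95 counts), and its WT libraries differed from each other by more than the lower of them from the KO libraries. MTF1 was at 14.3 and 12.3 CPM in WT with both KO libraries between these, at 13.7 and 13.8 CPM, and a 95% interval of -0.27 to 0.37 around a log2 fold change of 0.05.

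Together 4 of 8 members fell and 0 rose, where 0.622% of all genes tested were lower and 1.34% higher. The median log2 fold change of the 7 metallothionein genes was -0.66, beside -0.0024 over all genes. All 7 had both KO libraries under both WT libraries, which was so for 27% of all genes tested. A smooth dependence of each library's counts on GC content and length of the transcript was also taken out (the length and GC trend). Of the 4 lower members, 2 then passed the test, MT1G at -0.96 (adjusted p = 0.0352) and MT1E at -0.82 (adjusted p = 0.0117). MT1H was at -0.99 (adjusted p = 0.0556) and MT1F at -0.35 (adjusted p = 0.121). In that fit, of 14828 genes with known length and GC content, 92 were lower and 87 higher. Before removal, log2 fold changes over these genes had a Spearman rho of 0.233 with length and 0.147 with GC content. The metallothionein transcripts lie near the short end of these genes, where the trend rests on fewer of them. With 1 library left out the count of lower members was 1 without WT library 1, 2 without WT library 2, 1 without KO library 1 and 6 without either NAC library. With a change over 1 on the log2 scale also required, MT1G and MT1H passed, 2 members beside 0.616% of all genes, or beside 2.57% where the p was unadjusted. With 1 of the libraries compared left out, log2 fold changes lay at -1.17 to -1.05 in MT1G and -1.07 to -0.86 in MT1E. They lay at -1.35 to -0.98 in MT1H and -0.60 to -0.43 in MT1F. Neither MT1H nor MT1F was called in any of these fits, whereas MT1G was called in each.

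**Figure D2:**
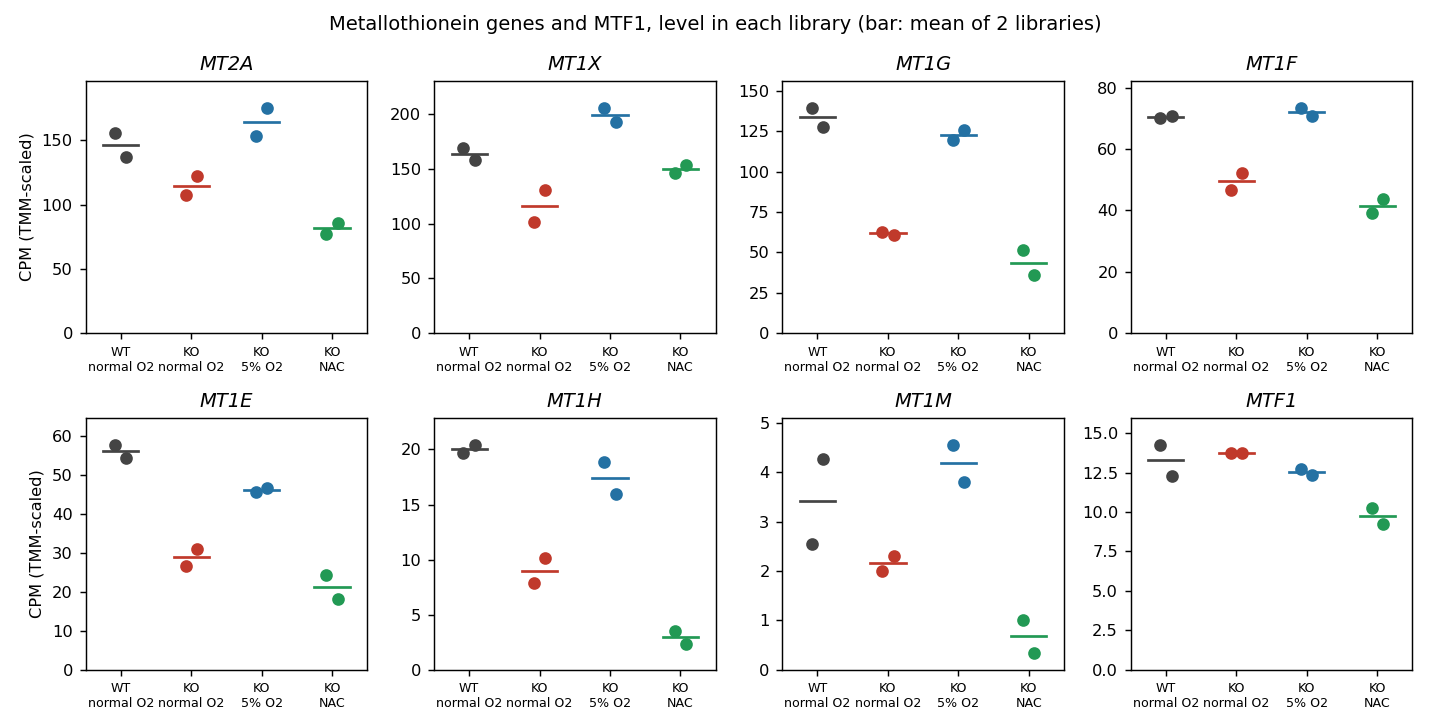
Level of each member in each library, in TMM-scaled CPM on linear axes that start at 0, with 1 point per library and a bar at the mean of the 2 libraries of a group. MT1G shows the pattern most plainly, at 139 and 128 CPM in WT, 62.7 and 60.8 in KO under normal O2, 119.6 and 126 at 5% O2 and 51.4 and 35.8 with NAC, while MTF1 differs in the NAC group, at 10.2 and 9.22 CPM.

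At 5% O2, KO cells had more of 6 of the 7 metallothionein transcripts than KO cells under normal O2, and MTF1 was again not called. The comparison addresses the response of KO cells to low oxygen. The largest called rise was in MT1G, from 62.7 and 60.8 CPM under normal O2 to 119.6 and 126 CPM at 5% O2, a log2 fold change of 0.99 ± 0.14 (SE, adjusted p = 0.0038). Both groups were tight and far apart, and the ratio of means was 1.99. MT1H rose from 7.89 and 10.1 CPM to 18.9 and 15.99 CPM, 0.95 ± 0.20 (adjusted p = 0.0191). MT1X, the member with the highest mean CPM in every group, rose from 102 and 131 CPM to 206 and 193 CPM, 0.78 ± 0.11 (adjusted p = 0.00444).

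MT1E rose from 26.7 and 30.9 CPM to 45.5 and 46.6 CPM, 0.68 ± 0.13 (adjusted p = 0.0171). MT1F rose from 46.5 and 52.3 CPM to 73.4 and 70.9 CPM, 0.55 ± 0.10 (adjusted p = 0.0124), and MT2A from 107 and 122 CPM to 153 and 175 CPM, 0.52 ± 0.11 (adjusted p = 0.0207). In each of these the libraries of the groups were apart, with the widest spread in MT2A. MT1M, at 2.01 and 2.31 CPM against 4.56 and 3.80 CPM, had a fold change as large as that of MT1H, 0.96, but a standard error of 0.40 (adjusted p = 0.162). MTF1 was at 13.7 and 13.8 CPM against 12.7 and 12.4 CPM, -0.13 ± 0.15 (adjusted p = 0.623).

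That made 6 of 8 members higher and 0 lower, beside 3.68% of all genes higher and 4.13% lower. The median log2 fold change of the 7 metallothionein genes was 0.78 and that of all genes -0.00025. After removal of the length and GC trend 2 members passed, MT1G at 0.86 (adjusted p = 0.0414) and MT1X at 0.59 (adjusted p = 0.0449). In that fit 271 of 14828 genes were higher and 50 lower. Before removal, log2 fold changes over these genes had a Spearman rho of -0.253 with length and -0.336 with GC content. The other called members kept positive values after removal, from 0.41 in MT1F to 0.81 in MT1H. The count also rested on both libraries of each group, since 0 members passed without KO library 1, 1 without KO library 2, 0 without 5% O2 library 1 and 3 without 5% O2 library 2, against 7 without either NAC library, MT1M then passing, all with positive values for the 7 metallothionein genes. No member's log2 fold change exceeded 1, so 0 members passed a call that asks for it, beside 0.66% of all genes, or 2.02% where the p was unadjusted.

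Set beside WT, the 5% O2 libraries of KO cells had 0 of 8 members called by edgeR's quasi-likelihood test, a contrast added after the data were seen. The same test called 3.27% of all genes at an adjusted p under 0.05. At an unadjusted p under 0.05 there was 1 member, MT1X, higher by 0.28, and DESeq2 called 0. For these other calls the share of all genes was not worked out. The differences ran from -0.28 in MT1E (95% interval -0.58 to 0.01) to 0.29 in MT1M (-0.56 to 1.15). For MT1G the interval was -0.42 to 0.18 and for MT2A -0.07 to 0.40. These intervals bound the differences and do not show equal levels. The KO libraries under normal O2 take no part in this contrast, but the WT libraries are those of the KO comparison and the 5% O2 libraries those of the oxygen comparison, so it adds no further libraries.

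KO cells given NAC had less MT1H, MT1M, MT1G, MT2A and MT1E than untreated KO cells, more MT1X, and less MTF1. Once the length and GC trend was removed, neither the rise of MT1X nor the fall of MTF1 was called. With 1 of the libraries compared left out, log2 fold changes lay at -0.79 to -0.26 in MT1G and -0.67 to -0.24 in MT1E. They lay at -1.95 to -1.34 in MT1H, -2.68 to -1.08 in MT1M and -0.59 to -0.40 in MT2A. Those of MTF1 lay at -0.58 to -0.43 and those of MT1X at 0.19 to 0.56. The comparison addresses how KO cells given NAC differed from untreated ones. Much of the transcriptome differed: 20.8% of all genes tested were lower and 23.8% higher, and 6 of 8 members were lower and 1 higher. Vehicle and time in culture may also have differed, and cell type markers did. These cannot be told apart from NAC here. The untreated KO libraries are the same as those compared with WT and with 5% O2 above.

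MT1H showed the clearest fall, from 7.89 and 10.1 CPM without NAC (291 and 417 counts) to 3.55 and 2.34 CPM with it (136 and 70 counts). Both NAC libraries lay far below the lower untreated library, and the log2 fold change was -1.60 ± 0.21 (SE, adjusted p = 0.000105) or 3.04-fold lower. MT1M fell from 74 and 95 counts to 39 and 10, which is 2.01 and 2.31 CPM to 1.02 and 0.334 CPM, -1.63 ± 0.44 (adjusted p = 0.00986). The 10 counts have an exact 95% Poisson interval of 4.80 to 18.4 counts, and the NAC libraries are far apart. The interval takes counts as independent, but mates were counted apart, so it can be too narrow even for counting error. MT1G fell from 62.7 and 60.8 CPM to 51.4 and 35.8 CPM, -0.50 ± 0.14 (adjusted p = 0.012), with the NAC libraries more spread than the untreated ones.

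MT2A fell from 107 and 122 CPM to 77.3 and 85.5 CPM, -0.50 ± 0.11 (adjusted p = 0.00303), and MT1E from 26.7 and 30.9 CPM to 24.4 and 18.2 CPM, -0.43 ± 0.14 (adjusted p = 0.022). In MT2A the groups were well apart, whereas in MT1E NAC library 1 lay just under the lower untreated library. MT1F was at 46.5 and 52.3 CPM without NAC and 39.1 and 43.8 CPM with it, a difference of -0.25 ± 0.10 that missed the threshold (adjusted p = 0.058).

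MT1X went the other way, from 102 and 131 CPM to 146 and 154 CPM, a log2 fold change of 0.37 ± 0.11 (adjusted p = 0.0194). Both NAC libraries were above both untreated ones, but the gap to untreated library 2 was smaller than that between the untreated libraries, and without KO library 1 the difference was 0.19 (adjusted p = 0.244). MTF1 fell from 13.7 and 13.8 CPM to 10.2 and 9.22 CPM, -0.50 ± 0.15 (adjusted p = 0.0156). Without the length and GC trend the values were 0.03 for MT1X (adjusted p = 0.875) and -0.15 for MTF1 (adjusted p = 0.451), so neither call remained, while MT1F was lower by -0.45 (adjusted p = 0.00865) and MT1E, MT1G, MT1H, MT1M and MT2A were still called lower. With that trend removed, 1634 of 14828 genes were lower and 2287 higher. Before removal, log2 fold changes with NAC over these genes had a Spearman rho of -0.257 with length and -0.500 with GC content. Such values are a description over genes that share the same libraries.

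**Figure D3:**
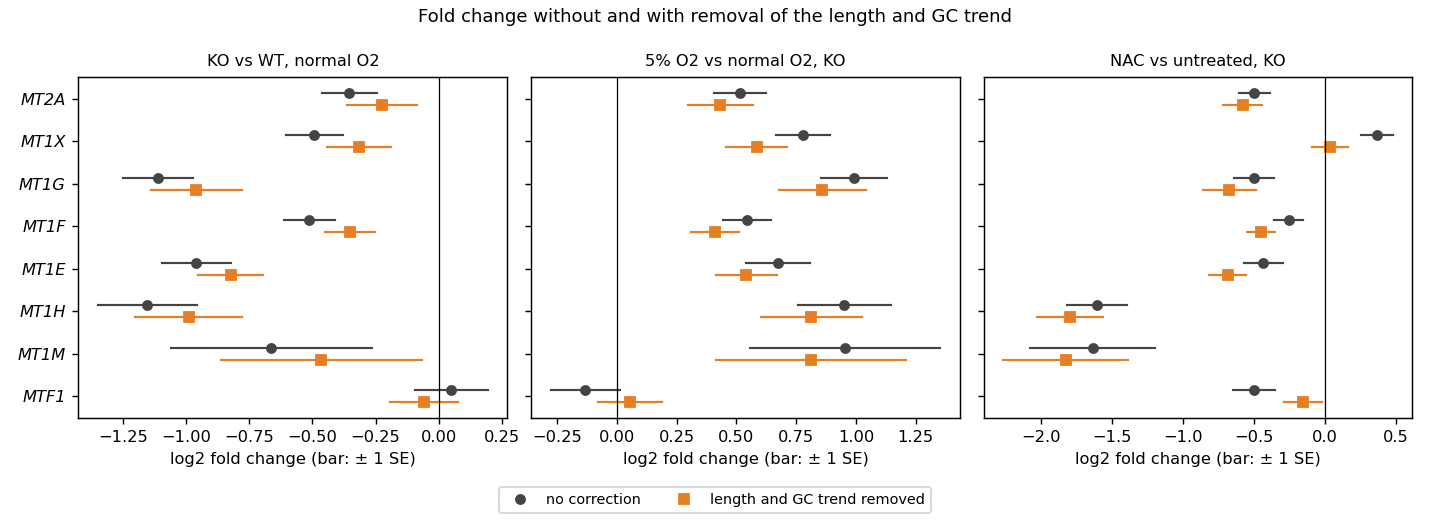
Log2 fold change of each member in 3 comparisons, without correction (circles) and after the length and GC trend was taken out (squares), with bars of 1 standard error. With NAC, MT1X moves from 0.37 to 0.03 and MTF1 from -0.50 to -0.15, whereas MT1H stays far below 0, at -1.60 and -1.79.

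Without NAC library 1, the library with more fibroblast marker counts, 6 members were again lower and 1 higher. The log2 fold changes were then -1.95 for MT1H, -2.68 for MT1M, -0.79 for MT1G, -0.67 for MT1E, -0.43 for MT2A, -0.58 for MTF1, -0.18 for MT1F and 0.40 for MT1X. Without KO library 1 only 4 members were called, all lower, and without KO library 2 there were 3, with 2 lower and 1 higher. Without NAC library 2, MT1E was at -0.24 and MT1G at -0.26, and neither was called. MT1G was also not called without KO library 1 or without KO library 2, so its call held only without NAC library 1. MT1H and MT1M were the 2 members with a change over 1 on the log2 scale, beside 7.8% of all genes with such a change and an adjusted p under 0.05, or 9.02% with an unadjusted one. MT1H and MT2A passed the test with any 1 of the 4 libraries compared left out.

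NAC and 5% O2 were also compared directly, since both were set against the same untreated KO libraries. All 7 metallothionein genes were lower with NAC than at 5% O2, where 13.6% of all genes were lower, and MTF1 was not called (-0.37 ± 0.15, adjusted p = 0.0832). The widest differences were in MT1M, at 1.02 and 0.334 CPM with NAC against 4.56 and 3.80 CPM at 5% O2 (-2.59 ± 0.44, adjusted p = 0.00171), and in MT1H, at 3.55 and 2.34 CPM against 18.9 and 15.99 CPM (-2.55 ± 0.21, adjusted p = 8.5e-05). For MT1H that is a 5.87-fold difference with no overlap of libraries. MT1G differed by -1.49 ± 0.14 (adjusted p = 0.000172), MT1E by -1.11 ± 0.14 (adjusted p = 0.000439), MT2A by -1.01 ± 0.11 (adjusted p = 0.000263) and MT1F by -0.80 ± 0.10 (adjusted p = 0.000453). The smallest difference was that of MT1X, at 146 and 154 CPM against 206 and 193 CPM (-0.41 ± 0.11, adjusted p = 0.0177), and it did not pass without either 5% O2 library (adjusted p = 0.107 without library 1 and 0.0814 without library 2). MT1E, MT1G, MT1H, MT1M and MT2A differed by over 1 on the log2 scale, 5 members beside 2.78% of all genes, or 4.42% where the p was unadjusted. All members but MT1X and MTF1 passed with any 1 of the compared libraries left out and after removal of the length and GC trend. Without NAC library 1 the 7 metallothionein genes were again lower, from -3.64 in MT1M and -2.90 in MT1H to -0.38 in MT1X (adjusted p = 0.0425), with MTF1 at -0.45 (adjusted p = 0.0605). The labels give no duration for either treatment, while the study describes RNA-seq after a day at low O2 in its text and a harvest after many passages under either treatment in its scheme, so a difference in exposure time cannot be told apart from one between the treatments.

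**Figure D4:**
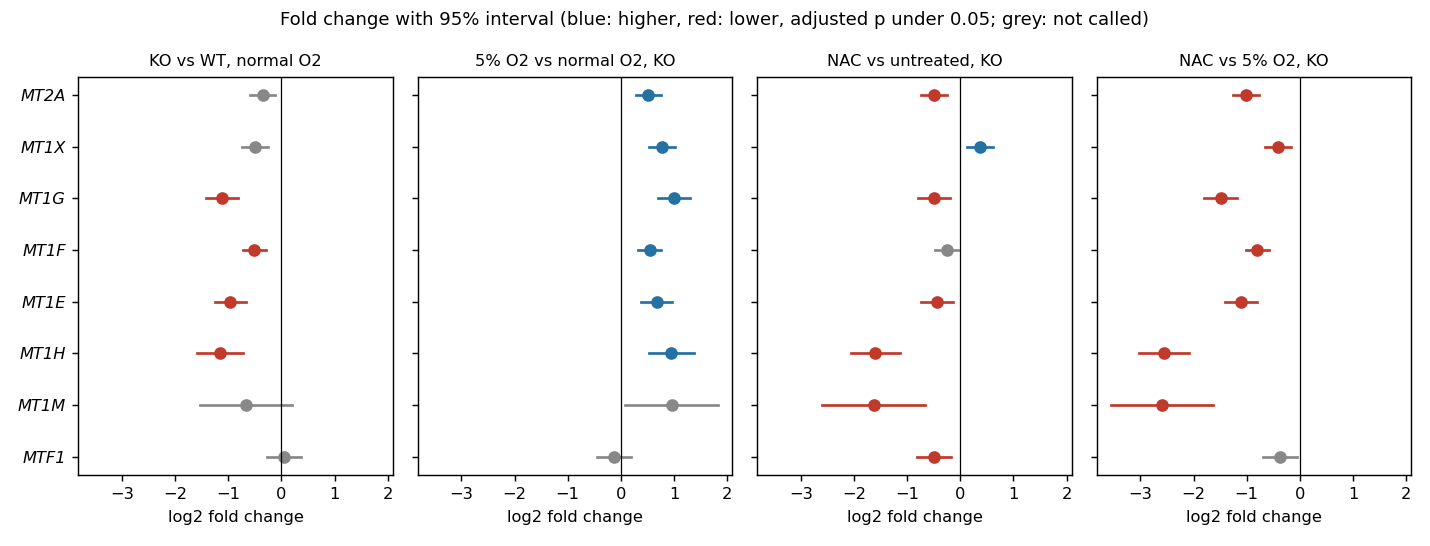
Log2 fold change of each member in 4 comparisons with its 95% interval from the edgeR fit, in blue where the member was higher, in red where lower and in grey where not called at an adjusted p under 0.05. In KO against WT the 4 called members lie below 0, and at 5% O2 the 6 called members lie higher than 0; both use the KO libraries under normal O2, and NAC gave both signs, from -1.63 in MT1M to 0.37 in MT1X, which was at 0.03 with the length and GC trend removed.

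Against WT, in a contrast added after the data were seen, NAC-treated KO cells had 7 of 8 members lower, beside 17.6% of all genes lower. MT1H was lower by 6.75-fold (-2.76 ± 0.21, adjusted p = 3e-05) and MT1G by 3.06-fold (-1.61 ± 0.14, adjusted p = 5.2e-05). MT1X, at 169 and 158 CPM in WT against 146 and 154 CPM with NAC, was the member not called (-0.13 ± 0.11, adjusted p = 0.414). MTF1 was at 14.3 and 12.3 CPM against 10.2 and 9.22 CPM (-0.45 ± 0.15, adjusted p = 0.031) and was not called without WT library 1 (-0.34, adjusted p = 0.209), without NAC library 2 (-0.38, adjusted p = 0.083) or after removal of the length and GC trend (-0.21, adjusted p = 0.305). Without NAC library 1 the values ran from -3.35 in MT1M and -3.10 in MT1H to -0.53 in MTF1 (adjusted p = 0.0225), with MT1X at -0.09 (adjusted p = 0.611).

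Summed over the 7 genes, metallothionein transcripts were at 614 and 573 CPM in WT, 355 and 409 CPM in KO under normal O2, 621 and 631 CPM at 5% O2 and 343 and 340 CPM with NAC. The group means were 594 ± 29.0, 382 ± 38.7, 626 ± 7.26 and 341 ± 2.41 CPM (SD, n = 2 each). The sum thus separated WT and 5% O2 libraries from the other 4, and the NAC sums lay under the lower untreated KO library by less than the untreated libraries differed from each other. The make-up of the sum differed more than its size between NAC and untreated KO cells. MT1X supplied 27.5% and 27.6% of the metallothionein counts in WT, 28.7% and 31.9% in KO, 33.1% and 30.6% at 5% O2, and 42.6% and 45.2% with NAC, its highest shares. MT1H supplied 3.21% and 3.56% in WT and 1.04% and 0.689% with NAC, and MT1G 22.7% and 22.3% in WT and 14.99% and 10.6% with NAC. These shares are not corrected for length, for repeated words or for the length and GC trend, which differed between groups. MT1X has the lowest GC content of the 7 transcripts, 49.3%, and its change with NAC went from 0.37 to 0.03 with the trend removed.

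**Figure D5:**
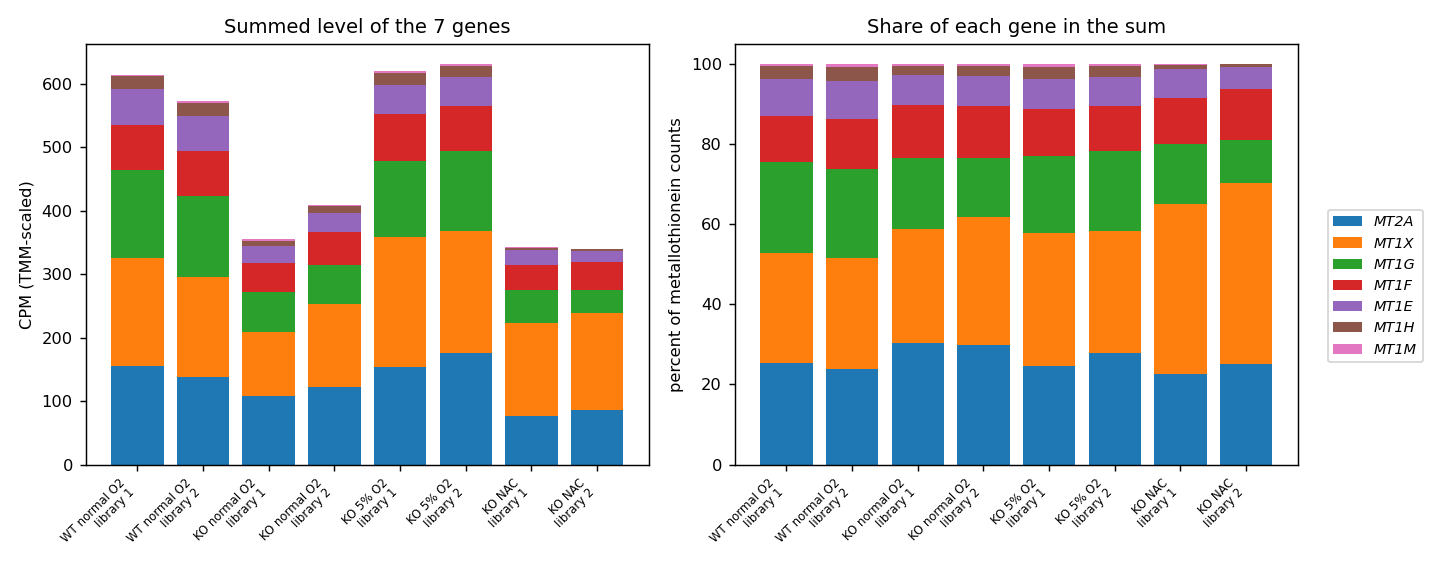
Left, summed level of the 7 metallothionein genes in each library in TMM-scaled CPM, stacked by gene; right, the percent of the metallothionein counts of a library that each gene supplied. The sums lie at 573 to 631 CPM in WT and 5% O2 libraries and at 340 to 409 CPM in the others, and the MT1X band widens to 42.6% and 45.2% with NAC.

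Across the 8 libraries, the log2 CPM of the metallothionein genes correlated pairwise with a Pearson r of 0.33 to 0.99 and a median of 0.886 over 21 pairs, a description over libraries that share 4 groups. MT1E and MT1G were the closest pair and MT1M and MT1X the most distant. MTF1 correlated with the 7 at -0.12 (MT1X) to 0.79 (MT1H). Among 12264 genes, those whose log2 CPM was most like that of the summed metallothionein counts were DDB1 (r = 0.956), an adaptor of a ubiquitin ligase, SIRT1 (0.953), a deacetylase, WARS1 (0.948), a tRNA synthetase, USP5 (0.947), a deubiquitinase, and HCFC1R1 (0.939). DDB1 was at 663 and 619 CPM in WT, 576 and 559 in KO, 647 and 672 at 5% O2 and 530 and 532 with NAC, the same order of groups over a narrower range. Those most like MTF1 were AFAP1 (0.994), KHNYN (0.990), ITSN1 (0.989), TNPO3 (0.987) and SYNGR3 (0.983), and AFAP1 was lowest with NAC, at 31.8 and 25.5 CPM.

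Other genes that move or use the same metals were read from a list of 50, of which 47 were in the table and 33 were tested: zinc exporters and importers, copper carriers, further genes linked to MTF1 and the remaining metallothionein loci. In KO against WT, 0 of 33 were called by edgeR's quasi-likelihood test (5 lower at an unadjusted p under 0.05, and 0 by DESeq2), with a median log2 fold change of -0.12. At 5% O2, 1 was called, SLC39A8, an importer of zinc and manganese, from 53.6 and 54.7 CPM to 75.8 and 71.7 CPM (0.45 ± 0.09, adjusted p = 0.0167), beside 3.68% of all genes higher and 4.13% lower, and the median was 0.14. DESeq2 called 4 of the list higher at 5% O2, and at an unadjusted p under 0.05 edgeR had 8 higher and 2 lower. The share of all genes called by DESeq2 or at an unadjusted p was not worked out. Neither these counts nor those in KO against WT can therefore be set beside all genes. With NAC, 14 were higher and 3 lower with a median of 0.24 against 0.02 over all genes, in the setting of the 23.8% and 20.8% given above. After removal of the length and GC trend 12 were called, 10 of the 17 and also SLC39A1 (0.33, adjusted p = 0.00605) and SLC39A14 (0.29, adjusted p = 0.0166), beside 26.4% of all genes in that fit.

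The most changed gene of the list with NAC was SLC39A10, a zinc importer that MTF1 is known to repress, at 199 and 180.0 CPM without NAC and 429 and 367 CPM with it, a log2 fold change of 1.07 ± 0.10 (adjusted p = 1.94e-05). Both NAC libraries were far above the 6 others, whose highest value was 242 CPM in WT, and after removal of the length and GC trend the change was 0.66 (adjusted p = 0.000506). COX11, a copper chaperone of cytochrome c oxidase, rose from 39.3 and 41.0 CPM to 78.7 and 80.7 CPM (0.99 ± 0.09, adjusted p = 1.92e-05), or by 0.35 with the trend removed (adjusted p = 0.0144). SLC30A9, a mitochondrial zinc transporter, rose from 87.8 and 87.6 CPM to 153 and 150.2 CPM (0.79 ± 0.09, adjusted p = 3.66e-05). The other 11 that rose were SLC30A5, SLC30A6, SLC39A6, SLC39A8, SLC39A9, the copper importer SLC31A1, ATOX1, SCO1, SELENOH, SELENOW and TXNRD1, and the 3 that fell were SLC30A3, SLC39A13 and GCLC, the catalytic subunit of glutathione synthesis. With the length and GC trend removed, 7 of the 17 were no longer called: SLC30A5 (-0.05, adjusted p = 0.736) and SLC39A6 (-0.0055, adjusted p = 0.972) had values of the other sign, and SLC30A6 (0.09), SLC39A8 (0.16), ATOX1 (0.33), SLC30A3 (-0.32) and SLC39A13 (-0.11) had adjusted p of 0.0846 to 0.497. Without NAC library 1, in a reading added after the data were seen, 12 genes of the list were higher and 3 lower. GCLC (-0.24, adjusted p = 0.126), SLC30A3 (-0.34, adjusted p = 0.256), SLC30A5 (0.24, adjusted p = 0.101) and SCO1 (0.26, adjusted p = 0.0502) were then not called, the zinc importers SLC39A4 (-1.31, adjusted p = 0.0071) and SLC39A7 (-1.03, adjusted p = 0.035) were lower, and SLC39A10 was at 0.95, COX11 at 1.00 and SLC30A9 at 0.77. SLC30A1, the exporter that MTF1 is known to induce alongside metallothioneins, was chosen for mention after its values were seen: its NAC libraries stood apart, at 33.6 and 62.7 CPM around untreated values of 53.4 and 51.9 CPM, and it was not called.

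Between NAC and 5% O2, 8 genes of the list were higher and 3 lower with NAC, beside 15.5% and 13.6% of all genes, the lower ones being GCLC and the metallothionein loci MT1A and MT1L. MT1A was at 22 and 20 counts with NAC against 48 and 62 at 5% O2 (-1.32 ± 0.45, adjusted p = 0.0453), and MT1L at 57 and 53 against 131 and 115 counts (-1.06 ± 0.34, adjusted p = 0.0341). The direction of both was that of the 7 main members. SLC39A10 was higher with NAC by 0.79 ± 0.10 (adjusted p = 0.000475). The number called fell from 11 to 3 when 5% O2 library 2 was left out, and was 7 in a fit of the compared libraries alone. Without NAC library 1, 9 were higher and 1, SLC39A4, lower, with GCLC at -0.26 (adjusted p = 0.131), MT1A at -1.21 (adjusted p = 0.128) and MT1L at -0.94 (adjusted p = 0.0937) not called and SLC39A10 at 0.67 (adjusted p = 0.000534).

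The 3 nearest tested genes on each side of the cluster were read in the same comparisons. NUDT21, OGFOD1 and BBS2 lay on one side and NUP93, HERPUD1 and NLRC5 on the other. Of these 6, 0 were called in KO against WT and 0 at 5% O2, where NUDT21 was closest to the threshold (0.30 ± 0.08, adjusted p = 0.0502). Over all genes, 1.34% were higher and 0.622% lower in KO against WT, and 3.68% and 4.13% at 5% O2. At such shares, 0 of 6 does not set the neighbours apart from other genes. With NAC, NUDT21 (0.39), BBS2 (0.50) and HERPUD1 (0.43), an endoplasmic reticulum stress gene, were higher (adjusted p = 0.00257, 0.0167 and 0.00601), where 5 of the 7 metallothionein genes fell. Over all genes, 23.8% were higher and 20.8% lower with NAC. Between NAC and 5% O2, 0 of 6 were called, beside 15.5% of all genes higher and 13.6% lower. Without NAC library 1 the same 3 were higher with NAC (0.39, 0.46 and 0.38) and NLRC5 was lower (-1.85, adjusted p = 0.0287).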

How the data were processed

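RNA from WA26 cells was made into TruSeq libraries. The authors deposited a table of raw read counts per gene. Per the labels and the study's methods, reads were checked with FastQC 0.11.9, trimmed, aligned to hg38 with HISAT2 and counted with featureCounts at default settings; the annotation is not given in the sources used here. Those defaults drop reads that map to several places and count mates apart. Of genes with low counts, 66.6% to 70.7% per library had an even count, against 50.0% to 51.7% of those above 500 counts. A fragment can thus weigh as 2 counts, and Poisson intervals on counts can be too narrow even for counting error.

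Of 12 labelled samples, 8 had a column and entered the fit; the other 4 were not analysed here. Genes were filtered with filterByExpr (minimum count 10), scaled by TMM and tested with edgeR 4.0.16 (R 4.3.3; quasi-likelihood test, 1 term per group, all 8 libraries, 4 residual degrees of freedom), with Benjamini-Hochberg adjustment over 15916 genes and a threshold of 0.05. CPM are TMM-scaled. The biological coefficient of variation was 13.7%, and 2 libraries per group limit the precision. Counts were simulated from mean levels over all 8 libraries, with the same spread for every gene and 200 genes changed in the NAC group. In them, 95 of 97 genes changed by 2 on the log2 scale and 73 of 98 changed by 1 were recovered. There were 6 false calls in 15603 genes. The real NAC comparison had far more called genes and a length and GC trend, so these rates do not describe it. Alternatives were DESeq2 1.42.0, other scalings, filters and calls, a replicate block, only the libraries compared, removal of a length and GC trend (mgcv 1.9.3; 93.2% of tested genes had a value) and leaving out each library; both treatment contrasts against WT were added after seeing the data. Named genes were the 8 members, called genes of the metal-handling list (values for the 3 with the largest changes per comparison), the 5 genes most like each pattern and the 3 tested genes on either side of the cluster. Members and lists were chosen with earlier results of these data known. Positions and promoters are from RefSeq, and transcript lengths from GENCODE.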

Additional observations from a re-analysis of the deposited data

How the results depend on the processing

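TMM, RLE and upper quartile scaling, DESeq2 and both other filters left the number of members called within 1.5 times in every comparison. Under the call of log2 fold change over 1 with unadjusted p, and under that of adjusted p with log2 fold change over 1, members called were 2 in KO against WT, 2 with NAC and 0 at 5% O2, and the metal-handling list had 1 and 1 with NAC, 2 and 2 between NAC and 5% O2, 1 (first call) in KO against WT and 0 (second) at 5% O2. Removal of the length and GC trend gave 2, 6 and 2 members in KO, NAC and 5% O2, beside 1.21%, 26.4% and 2.16% of all genes in those fits. It gave 12 of the list with NAC. It turned MTF1 to -0.057 in KO against WT and to 0.055 at 5% O2. In a fit of only the libraries compared, 5 members were called with NAC, and of the list 5 at 5% O2 and 7 between NAC and 5% O2. Of the list, 5% O2 gave 4 with DESeq2, 2 with RLE, 2 with upper quartile scaling, 4 without a filter and 3 where every library had to hold 10 counts; no filter gave 1 in KO against WT and 19 with NAC. The cause was not tested.

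With each library left out in turn, a lone library being assumed to vary like the others, members called ranged from 1 to 6 in KO against WT, 3 to 8 with NAC, 0 to 7 at 5% O2 and 6 to 7 between NAC and 5% O2. The list ranged from 0 to 1, 11 to 20, 0 to 5 and 3 to 13. Between 5% O2 and WT, MT1M ranged from -0.030 to 0.71 and MTF1 from -0.19 to 0.028, and MTF1 in KO against WT from -0.053 to 0.16.

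Library numbers did not pair samples: differences between libraries 1 and 2 correlated at -0.0226 to 0.0816 across 15916 genes. With a replicate block, the list had 4 genes called at 5% O2, MT1F was called lower with NAC (adjusted p = 0.0497), and all genes called in KO against WT went from 213 higher and 99 lower to 257 and 109.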
